A study of Homo sapiens with 12 samples.

Results

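Matrix metalloproteases, their ADAM and ADAMTS relatives and the tissue inhibitors that block them are encoded by 67 of the 18739 genes in the deposited tables of 12 RNA-seq libraries. The members were chosen by gene symbol, as every ADAM, ADAMTS, ADAMTSL, MMP or TIMP symbol that ends in a number, with or without 1 further letter. The family itself was selected on changes in the read counts and TPM values of these same 12 libraries that were already known, so its counts of changed genes are given as a description. The members are 22 MMP, 4 TIMP, 17 ADAM, 19 ADAMTS and 5 ADAMTSL genes.

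All libraries came from SK-N-SH, an established human neuroblastoma line, and formed 4 groups of 3. Cells received chaetocin at 50 nM, a fungal compound used to inhibit the histone methyltransferase SUV39H1, or were transfected with an siRNA against SUV39H1 (siSUV39H1), with a control siRNA (siNC), or treated with the solvent DMSO. The study's stated question was what SUV39H1 does in neuroblastoma cells. Its design text names shRNA constructs for the silenced pair, whereas the sample labels name siRNAs, and the label wording is kept here. Per the labels the siSUV39H1 libraries have SUV39H1 knocked down and the other 3 groups are wild type. The design text speaks of biological triplicates but the labels name no separate cultures, days or batches, so p-values measure the spread between these libraries, which may be partly technical. Treatment times were not given in the sources used here.

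Metalloproteases of this superfamily use a zinc ion to cut proteins outside the cell or at its surface. MMPs are made as inactive precursors and cut collagens, gelatins, elastin and other matrix proteins, while ADAMs release growth factors, cytokines and adhesion molecules from the membrane. ADAMTS enzymes are secreted and cut proteoglycans, procollagens and von Willebrand factor, ADAMTSL proteins resemble them but lack the protease domain, and TIMPs bind and block the active site of most MMPs and of some ADAM and ADAMTS enzymes.

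Total counts ran between 18004632 and 19976995 per library. SUV39H1 itself was at 5.48 to 6.07 CPM, counts scaled to library size, in siSUV39H1 libraries, against 16.7 to 18.7 CPM in siNC libraries, and at 7.44 to 7.83 CPM in chaetocin libraries, against 19.6 to 24.6 CPM in DMSO libraries. In DMSO libraries the line expressed both noradrenergic neuroblast markers, at a summed 683 to 822 TPM, a unit that also divides by gene length, and mesenchymal markers, at 12900 to 13300 TPM. With chaetocin 41.1% of all 15051 genes tested were higher and 38.4% lower. All 5 tested noradrenergic and all 6 mesenchymal markers were lower there. Higher were 4 of 4 tested leukocyte, 4 of 5 epithelial and 3 of 3 endothelial markers. PTPRC, CD14, FCER1G and VWF among these entered the test only through the chaetocin libraries. In bulk RNA, fewer cells of one kind and less RNA per cell cannot be told apart.

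In these cells the family was carried by a few transcripts. MMP2, the gelatinase that cuts basement membrane collagen, had the highest level per length in DMSO libraries (936 ± 22.3 TPM, mean ± SD, n = 3), followed by TIMP1 (900 ± 67.9 TPM), TIMP2 (738 ± 39.6 TPM), MMP14 (185 ± 5.93 TPM) and ADAM15 (169 ± 3.61 TPM). MMP2 and TIMP1 differed in DMSO by less than the spread between libraries. With chaetocin the order was TIMP1 (1210 ± 78.1 TPM), ADAM15 (541 ± 13.8 TPM), MMP2 (405 ± 23.8 TPM), TIMP2 (205 ± 9.34 TPM) and MMP3 (124 ± 5.17 TPM), and these 5 levels did not overlap. The summed TPM of all 67 members was 2949 ± 105 with chaetocin, 3514 ± 35.3 with siSUV39H1, 3740 ± 132 with siNC and 3558 ± 43.8 with DMSO.

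Chaetocin changed most of the family, and in both directions. Of the 56 members with enough counts for a test, 19 were higher than in DMSO (33.9%, beside 41.1% of all 15051 genes tested) and 30 were lower (53.6%, beside 38.4%), at an adjusted p under 0.05 by edgeR's quasi-likelihood test. Changes of at least 2-fold were found upward for 16 members (28.6%, beside 21.8% of all genes) and downward for 23 (41.1%, beside 16.0%). The median log2 change over the tested members was -0.57, beside 0.04 over all genes tested. With library totals as the only scaling those medians were -0.42 and 0.19. MMP7, MMP8, MMP9, MMP13, MMP20 and TIMP4 passed the filter on low counts only through the chaetocin libraries, so that they could enter the test only by being higher there. Over all 67 members, without any filter, the 3 chaetocin libraries lay above the 3 DMSO libraries for 25 members (37.3%, beside 41.1% of all 18739 genes) and below them for 32 (47.8%, beside 32.7%).

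**Figure D1:**
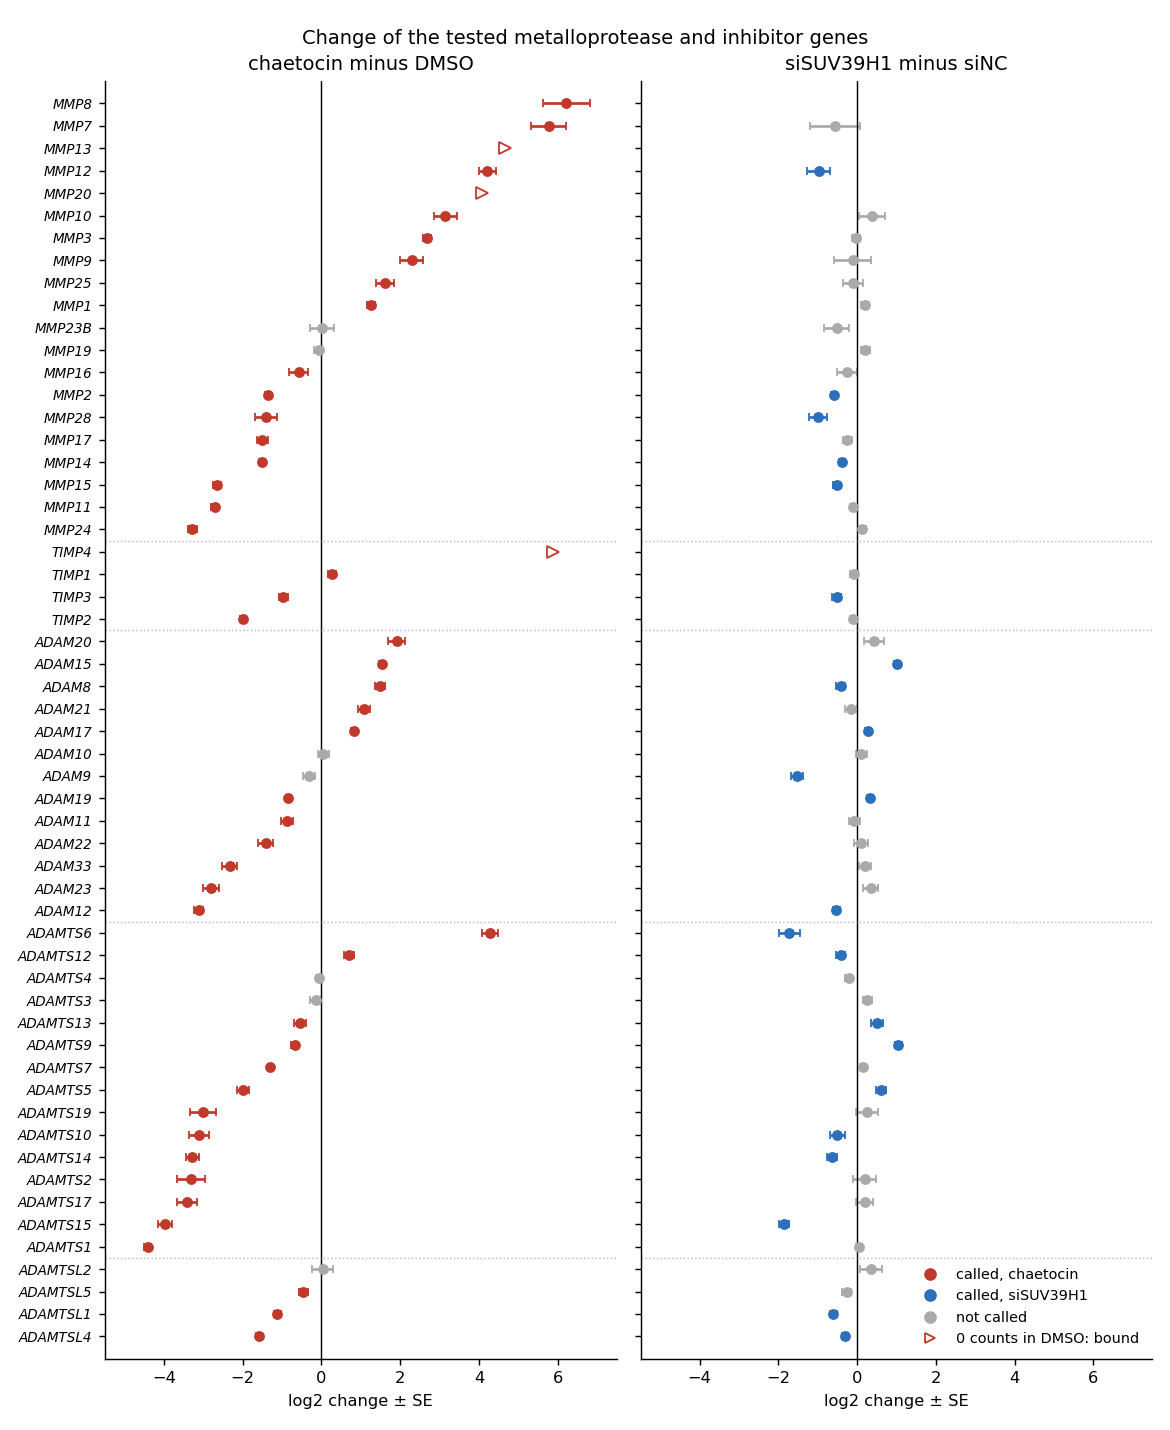
Fitted log2 change with its standard error for the 56 tested members, by family, with chaetocin minus DMSO on the left and siSUV39H1 minus siNC on the right. Coloured points passed an adjusted p of 0.05, grey points did not, open triangles are lower bounds for members with 0 counts in DMSO, and members with 3 or fewer counts in both siRNA groups are not drawn on the right. Members are sorted within each family by their change with chaetocin. Chaetocin values spread to both sides, while most knockdown values lie within 1 log2 unit of 0.

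A total of 9 of the 22 MMP genes stand in a row on chromosome 11, in the order MMP7, MMP20, MMP27, MMP8, MMP10, MMP1, MMP3, MMP12 and MMP13, with 0 other protein-coding genes between the first and the last (RefSeq annotation of GRCh38.p14, chromosome 11, 102520508 to 102955732, 435 kb). All 8 of them that could be tested were called higher with chaetocin, beside 41.1% of all genes tested, but MMP7, MMP8, MMP13 and MMP20 entered the test only through the chaetocin libraries. MMP1, MMP3, MMP10 and MMP12 did not depend on them to enter. The remaining gene, MMP27, had 15 counts with chaetocin and 0 with DMSO. Their summed level was 197.7 ± 12.6 TPM with chaetocin, 32.05 ± 1.21 TPM with siSUV39H1, 28.76 ± 0.64 TPM with siNC and 34.83 ± 1.61 TPM with DMSO. Of the 12 tested MMP genes elsewhere in the genome, 2 were higher and 8 lower, beside 41.1% and 38.4% of all genes, and 1 of the 2, MMP9, entered only through the chaetocin libraries.

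The stretch just before the transcription start is shown for MMP7, MMP20, MMP27, MMP8 and MMP10, the genes of the row that have a window in the RefSeq promoter table, because 4 of them rose together with chaetocin and all 5 belong to the row. Each run is the 120 bases before the annotated start (GRCh38.p14, minus strand, written 5′ to 3′ toward the gene). Capitals mark TATAAA, the letters of a TATA box, and TGANTCA, a loose form of an AP-1 site that allows any base at N.
MMP7 (chr11:102530748-102530867): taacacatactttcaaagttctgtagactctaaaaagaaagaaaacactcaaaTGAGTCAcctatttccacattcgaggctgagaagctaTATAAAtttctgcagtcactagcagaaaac
MMP20 (chr11:102625333-102625452): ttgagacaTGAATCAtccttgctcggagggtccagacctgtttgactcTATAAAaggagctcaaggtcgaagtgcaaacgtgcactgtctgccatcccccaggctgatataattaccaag
MMP27 (chr11:102705770-102705889): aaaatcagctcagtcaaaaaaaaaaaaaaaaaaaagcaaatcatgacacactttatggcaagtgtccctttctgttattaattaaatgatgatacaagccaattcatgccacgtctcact
MMP8 (chr11:102724955-102725074): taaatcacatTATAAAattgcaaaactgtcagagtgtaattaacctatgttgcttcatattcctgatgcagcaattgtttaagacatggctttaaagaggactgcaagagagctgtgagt
MMP10 (chr11:102780629-102780748): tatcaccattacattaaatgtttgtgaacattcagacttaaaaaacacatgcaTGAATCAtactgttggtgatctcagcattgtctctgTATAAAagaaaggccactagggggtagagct

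MMP7 and MMP10 share an arrangement, with letters of the loose AP-1 pattern beginning 67 bases before the start in both. The TATA letters begin 30 bases before it in MMP7 and 31 in MMP10. The AP-1 match reads TGAGTCA in MMP7 and TGAATCA in MMP10 and MMP20. In MMP20 both motifs lie farther out, at 112 and 72 bases, and MMP8 holds only the TATA letters, at 110 bases. MMP27 holds neither in this window. Searched on both strands over 250 bases before to 50 after the start, the AP-1 letters were in 3 of these 5 windows and in 7.71% of 35116 RefSeq promoter windows, and the TATA letters in 4 of 5 and in 11.5%. The 2 motifs do not overlap in these windows, the pattern TGANTCA is its own reverse complement, and a match is a description of the letters. Windows were found for 43 of the 67 members in all.

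MMP3, stromelysin 1, which cuts proteoglycans and activates other MMP precursors, had the highest level of the row. It was at 115, 114 and 111 CPM in the chaetocin libraries, against 16.7, 16.6 and 19.5 CPM in the DMSO libraries. The groups did not overlap and the log2 change was 2.69 ± 0.10 (SE, adjusted p = 8.13e-13). MMP1, the interstitial collagenase, was at 44.9, 43.6 and 39.6 CPM with chaetocin, against 16.1, 17.8 and 19.4 CPM with DMSO (log2 1.26 ± 0.10, adjusted p = 1.11e-08). Its change was the smallest of the row. MMP12, the macrophage elastase, was at 12.8, 10.6 and 10.2 CPM with chaetocin, against 0.633, 0.577 and 0.58 CPM with DMSO (log2 4.21 ± 0.22, adjusted p = 9.4e-11), so that every chaetocin library stood far above every DMSO library. MMP10, stromelysin 2, had 264 counts with chaetocin and 29 with DMSO, a ratio of 8.98 at equal depth (exact 95% interval 6.11 to 13.7).

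The other members of the row were close to absent without chaetocin. MMP7, matrilysin, had 297 counts over the 3 chaetocin libraries and 5 over the DMSO libraries, a ratio of 58.6 (24.8 to 182). MMP8, the neutrophil collagenase, had 103 counts with chaetocin and 1 with DMSO (102, 17.8 to 4050). For these genes the depth sets a wide range. MMP13, collagenase 3, had 77 counts with chaetocin and 0 with DMSO, at least 25.3-fold higher taking 3 counts in the DMSO libraries together as the floor that a count of 0 allows. MMP20, the enamel protease enamelysin, had 51 counts with chaetocin and 0 with DMSO (at least 16.8-fold higher), and MMP27 was at least 4.93-fold higher. Intervals and floors cover counting error only. MMP1, MMP3 and MMP20 share 7.61%, 1.56% and 8.08% of their exon bases with antisense genes, and whether the counting used strand is not given in the sources used here.

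Genes on both sides of the row were also higher with chaetocin, though not all of them, beside 41.1% of all genes tested. BIRC3 and BIRC2, the inhibitors of apoptosis of the NF-kB and TNF receptor pathways, lie before MMP7 and had log2 changes of 6.08 ± 0.36 (adjusted p = 3.28e-10) and 1.99 ± 0.16 (adjusted p = 1.4e-08). YAP1, the Hippo pathway coactivator, had 1.04 ± 0.09, TMEM123, the gene next to MMP7, had 0.89 ± 0.18, and both passed the test. On the far side the next gene, DCUN1D5, had -0.16 ± 0.08 and did not pass, DYNC2H1 was higher at 1.38 ± 0.24, and PDGFD had -0.19 ± 0.15 and did not pass. CASP4, the inflammatory caspase, was higher at 2.79 ± 0.09, but it starts at position 104942866, far from the end of the row at 102955732. Farther out before the row, CEP126 (0.48 ± 0.25) and CFAP300 (0.27 ± 0.16) did not pass, although CFAP300 did without chaetocin replicate 3 (0.42, adjusted p = 0.0242).

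**Figure D2:**
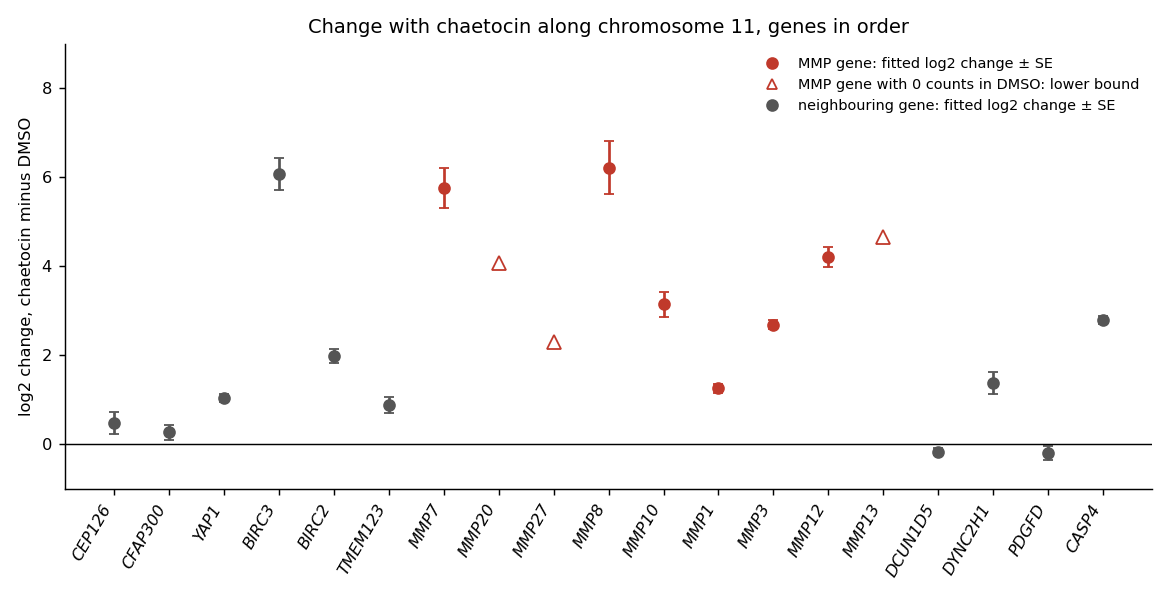
Log2 change with chaetocin minus DMSO for the genes of the chromosome 11 row and their tested neighbours, drawn in gene order at equal spacing, not to distance. Red marks the 9 MMP genes and grey the neighbours; circles are fitted values with standard errors and triangles are lower bounds for genes with 0 counts in DMSO. All 9 MMP genes lie above 1, BIRC3 reaches 6.08, and DCUN1D5 and PDGFD lie just below 0.

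MMP2 and MMP14 led the MMP genes that were lower with chaetocin. MMP2 (chromosome 16, 55478830 to 55506691) was at 640, 682 and 741 CPM with chaetocin, against 1730, 1790 and 1780 CPM with DMSO, a log2 change of -1.36 ± 0.08 (adjusted p = 1.7e-10). MMP14 (chromosome 14, 22836585 to 22847758), the membrane-bound enzyme that activates the MMP2 precursor in a complex with TIMP2, was at 129, 131 and 147 CPM with chaetocin, against 379, 391 and 386 CPM with DMSO (log2 -1.51 ± 0.07, adjusted p = 2.67e-11). In both genes the groups stood well apart. MMP11, stromelysin 3, was at 15.8, 16 and 18.3 CPM with chaetocin, against 98.1, 116 and 115 CPM with DMSO (log2 -2.71 ± 0.09, adjusted p = 4.33e-13). MMP24, a membrane-type MMP of neurons, had the largest fall at 7.13, 6.27 and 6.22 CPM with chaetocin, against 72, 62.5 and 56 CPM with DMSO (log2 -3.28 ± 0.12, adjusted p = 1.39e-12). MMP24 shares 18.1% of its exon bases with its antisense neighbour MMP24OS, which was also lower (log2 -0.90 ± 0.09).

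Of the membrane-type MMPs 5 were called lower and 1 higher, beside 38.4% and 41.1% of all genes, and 1 of the 5, MMP16, lost its call in several alternatives. MMP15, a transmembrane enzyme, had a log2 change of -2.66 ± 0.10, and MMP17, which is held by a lipid anchor, -1.50 ± 0.13. MMP16, another transmembrane enzyme, had -0.58 ± 0.25 with an adjusted p of 0.0445, a call that was lost without chaetocin replicate 2 (-0.53, adjusted p = 0.115) or 3 (-0.51, 0.126) or DMSO replicate 2 (-0.61, 0.0661) or 3 (-0.49, 0.128). MMP25, the other lipid-anchored member, was higher at 3.31, 2.8 and 2.98 CPM with chaetocin, against 0.95, 1.31 and 0.686 CPM with DMSO (log2 1.62 ± 0.23, adjusted p = 9.32e-06). It shares 35.2% of its exon bases with an antisense gene. MMP28, epilysin, fell to 30 counts with chaetocin, against 79 with DMSO (log2 -1.40 ± 0.28, adjusted p = 0.000315).

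MMP9, the second gelatinase, went the other way from MMP2. It was at 2.04, 2.8 and 2.71 CPM with chaetocin, against 0.422, 0.315 and 0.791 CPM with DMSO (log2 2.29 ± 0.30, adjusted p = 3.81e-06). All chaetocin libraries were above all DMSO libraries, but on TPM the gene stayed far below MMP2 in every library, at 1.77 to 2.39 TPM with chaetocin. MMP9 shares 18.4% of its exon bases with an antisense gene. MMP19 (-0.07 ± 0.11) and MMP23B (0.01 ± 0.30), a gene with a close copy in MMP23A whose reads the counting could share, did not pass. On the deposited TPM values MMP19 was called higher instead, at 0.25 with a pseudocount of 1.

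The inhibitors divided. TIMP1 (chromosome X, 47582436 to 47586789), a soluble inhibitor that acts poorly on membrane-type MMPs, was at 429, 455 and 507 CPM with chaetocin, against 355, 364 and 434 CPM with DMSO. The groups overlapped, since the lowest chaetocin library lay below the highest DMSO library. Its log2 change was 0.27 ± 0.10 (adjusted p = 0.0205), and the call was lost without chaetocin replicate 3 (0.20, adjusted p = 0.11) or DMSO replicate 1 (0.21, 0.104) or 2 (0.22, 0.105). TIMP2 (chromosome 17, 78852977 to 78925387), which both inhibits MMP2 and takes part in its activation, was at 363, 369 and 410 CPM with chaetocin, against 1530, 1530 and 1490 CPM with DMSO (log2 -1.99 ± 0.07, adjusted p = 8.47e-13). It was the clearest fall among the TIMPs, with no overlap.

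TIMP3, which stays bound to the matrix and also inhibits ADAM17 and aggrecanases, was at 5.4, 5.29 and 5.1 CPM with chaetocin, against 9.76, 11 and 10.2 CPM with DMSO (log2 -0.97 ± 0.11, adjusted p = 1.01e-06). TIMP4 appeared with chaetocin alone: 180 counts over the 3 chaetocin libraries, against 0 over each of the siSUV39H1, siNC and DMSO groups, at least 59.2-fold higher than DMSO at the same floor. TIMP4 lies within SYN2 and shares 10.3% of its exon bases with it on the opposite strand, and SYN2 had 68 counts with chaetocin and 427 with DMSO (log2 -2.66 ± 0.16), so the 2 genes moved in opposite directions. TIMP1 made up 85.1 ± 0.365% of the summed TIMP TPM with chaetocin and 54.8 ± 3.10% with DMSO. The ratio of summed MMP TPM to summed TIMP TPM was 0.51 ± 0.0192 with chaetocin, 0.722 ± 0.0195 with siSUV39H1, 0.932 ± 0.0461 with siNC and 0.802 ± 0.0352 with DMSO.

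**Figure D3:**
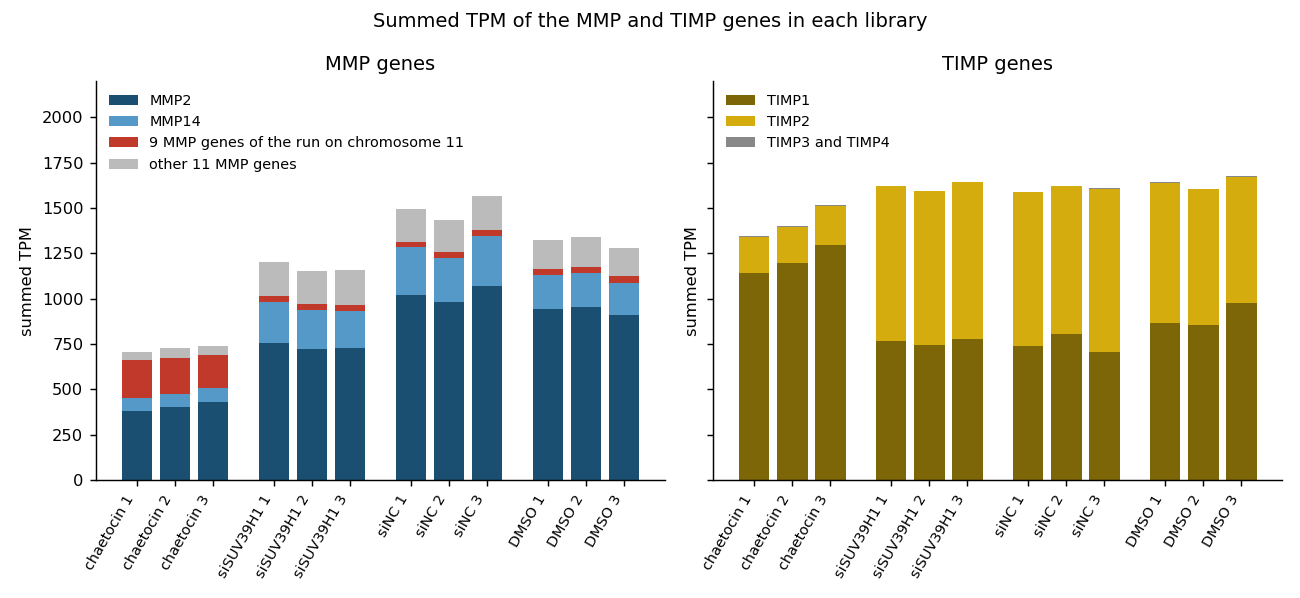
Stacked bars of summed TPM in each of the 12 libraries, with MMP genes on the left and TIMP genes on the right, both from 0. MMP2 and TIMP2 are smaller in the 3 chaetocin libraries than in any other library, the 9 genes of the chromosome 11 row make up 183.5 to 207.9 TPM there, and TIMP1 makes up most of the TIMP bar with chaetocin.

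Among the membrane-bound ADAM proteases the shedding enzymes differed. ADAM17, the enzyme that releases TNF and ligands of the EGF receptor, was at 63.6, 62.1 and 58.5 CPM with chaetocin, against 34.8, 36.7 and 32.4 CPM with DMSO (log2 0.82 ± 0.07, adjusted p = 5.48e-08). It shares 12.3% of its exon bases with IAH1 on the opposite strand, and IAH1 was lower (log2 -0.93 ± 0.09). ADAM10, which cuts Notch and cadherins, was at 53.1, 52.8 and 45.8 CPM with chaetocin, against 50.7, 49.1 and 46.4 CPM with DMSO, overlapping groups with a log2 change of 0.05 ± 0.14 that did not pass (adjusted p = 0.73). ADAM15 (chromosome 1, 155051316 to 155062775), an enzyme with an integrin-binding domain, had the highest TPM of the ADAM genes with chaetocin, siSUV39H1 and DMSO, while ADAM19 had it with siNC. ADAM15 was at 750, 741 and 802 CPM with chaetocin, against 258, 268 and 269 CPM with DMSO (log2 1.53 ± 0.07, adjusted p = 8.92e-12).

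ADAM8, an enzyme best known from leukocytes, rose to 10.6, 10.6 and 10.4 CPM with chaetocin, against 4.12, 3.78 and 3.43 CPM with DMSO (log2 1.48 ± 0.13, adjusted p = 3.35e-08). ADAM20 and ADAM21, related genes known for expression in testis, were also higher, with log2 changes of 1.91 ± 0.21 and 1.09 ± 0.15. ADAM9 was at 88.2, 89.4 and 79 CPM with chaetocin, against 108, 110 and 101 CPM with DMSO. The ADAM9 groups did not overlap, but the log2 change of -0.31 ± 0.15 did not pass (adjusted p = 0.0637); it passed when the chaetocin and DMSO libraries were fitted alone (adjusted p = 0.000208).

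The falling ADAM genes included some without protease activity. ADAM22 and ADAM23, inactive receptors for the secreted neuronal protein LGI1, had log2 changes of -1.41 ± 0.19 and -2.81 ± 0.20, and their inactive relative ADAM11 had -0.87 ± 0.15. ADAM12 (chromosome 10, 126012391 to 126388477), a mesenchymal meltrin, was at 8.91, 8.29 and 9.41 CPM with chaetocin, against 82.7, 80.8 and 68.8 CPM with DMSO. Its log2 change of -3.12 ± 0.11 (adjusted p = 4.59e-13) was the largest fall among the ADAM genes. ADAM19, the second meltrin, fell to 139, 127 and 141 CPM with chaetocin, against 255, 248 and 230 CPM with DMSO (log2 -0.84 ± 0.07), and ADAM33 had -2.33 ± 0.19. Mesenchymal markers fell in the same libraries, at a summed 6390 to 7630 TPM with chaetocin against 12900 to 13300 TPM with DMSO, and their part in the result was not tested.

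Of the 15 tested ADAMTS proteases, which are secreted, 11 were lower with chaetocin (73.3%, beside 38.4% of all genes) and 2 were higher (13.3%, beside 41.1%). ADAMTS1 (chromosome 21, 26835755 to 26845409), which cuts aggrecan and versican, was at 13.1, 11.5 and 11 CPM with chaetocin, against 271, 249 and 238 CPM with DMSO. Its log2 change of -4.41 ± 0.09 (adjusted p = 3.95e-15) was the largest fall of all 56 tested members. ADAMTS15, another proteoglycan-cutting enzyme, was at 0.713, 0.829 and 1.17 CPM with chaetocin, against 13.2, 15.6 and 14 CPM with DMSO (log2 -3.97 ± 0.17, adjusted p = 5.27e-12). ADAMTS5, the main aggrecanase of mouse cartilage, was at 9.73, 9.43 and 8.61 CPM with chaetocin, against 36.7, 36.8 and 38 CPM with DMSO (log2 -2.00 ± 0.15, adjusted p = 4.51e-09). All 3 had clearly separate groups. ADAMTS9 fell less, at 44.9, 37.9 and 38 CPM with chaetocin, against 73, 60.3 and 59.7 CPM with DMSO (log2 -0.68 ± 0.09), and ADAMTS4, an aggrecanase too, had -0.07 ± 0.08 and did not pass.

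The procollagen-processing members split in the same way. ADAMTS14 had 1.23 ± 0.352 CPM with chaetocin and 12 ± 1.36 CPM with DMSO (log2 -3.28 ± 0.16), and ADAMTS2 had 14 counts with chaetocin and 141 with DMSO, 10.2-fold lower (5.88 to 19.1). ADAMTS3, the third of them, which also processes VEGFC, had -0.15 ± 0.13 and did not pass. Falls of similar size were found for ADAMTS17 (-3.42 ± 0.25), ADAMTS10 (-3.11 ± 0.25) and ADAMTS19 (-3.02 ± 0.33), the first pair being linked to fibrillin microfibrils. ADAMTS7, which cuts the cartilage protein COMP, had -1.30 ± 0.07, and ADAMTS13, the protease of von Willebrand factor, -0.55 ± 0.15.

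ADAMTS6 was the opposite case. ADAMTS6 was at 17.6, 18 and 15.7 CPM with chaetocin, against 1.16, 0.839 and 0.633 CPM with DMSO, a log2 change of 4.28 ± 0.21 (adjusted p = 3.21e-11), while ADAMTS10, its closest relative, fell. ADAMTS12 was higher as well, at 18.8, 16.4 and 18.7 CPM with chaetocin, against 12.7, 11.6 and 9.18 CPM with DMSO (log2 0.69 ± 0.13, adjusted p = 0.000126). Among the protease-free ADAMTSL genes, ADAMTSL1 (-1.12 ± 0.09), ADAMTSL4 (-1.59 ± 0.08) and ADAMTSL5 (-0.46 ± 0.11) were lower, and ADAMTSL2 (0.03 ± 0.26) did not pass. The sum over all ADAMTS genes was 54.14 ± 2.34 TPM with chaetocin and 160.3 ± 15.4 TPM with DMSO.

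A total of 11 members had too few counts for a test. ADAM29 had 23 counts with chaetocin and 0 with DMSO (at least 7.57-fold higher), ADAMTS18 had 28 and 1 (27.6, 4.57 to 1130), and ADAMTS20 had 38 and 3 (12.5, 3.97 to 63.3). ADAM28 had 7 counts with chaetocin and 0 with DMSO, ADAM32 had 18 and 6, and ADAMTSL3 had 9 and 1. For these members and MMP27 all 3 chaetocin libraries lay above all 3 DMSO libraries, as they did for 41.1% of all 18739 genes. ADAMTS8, ADAMTS16, MMP21 and ADAM18 showed 0 to 4 counts in any library, and no difference was detectable at this depth. Of all 67 members, 1 had 0 counts with chaetocin, 6 with siSUV39H1, 8 with siNC and 9 with DMSO, and the chaetocin libraries had the lowest total counts. Over all 18739 genes, 17692 to 17748 per library had counts with chaetocin, against 16230 to 16308 with DMSO. The members with counts were 64 to 66 per library with chaetocin and 53 to 56 with DMSO.

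**Figure D4:**
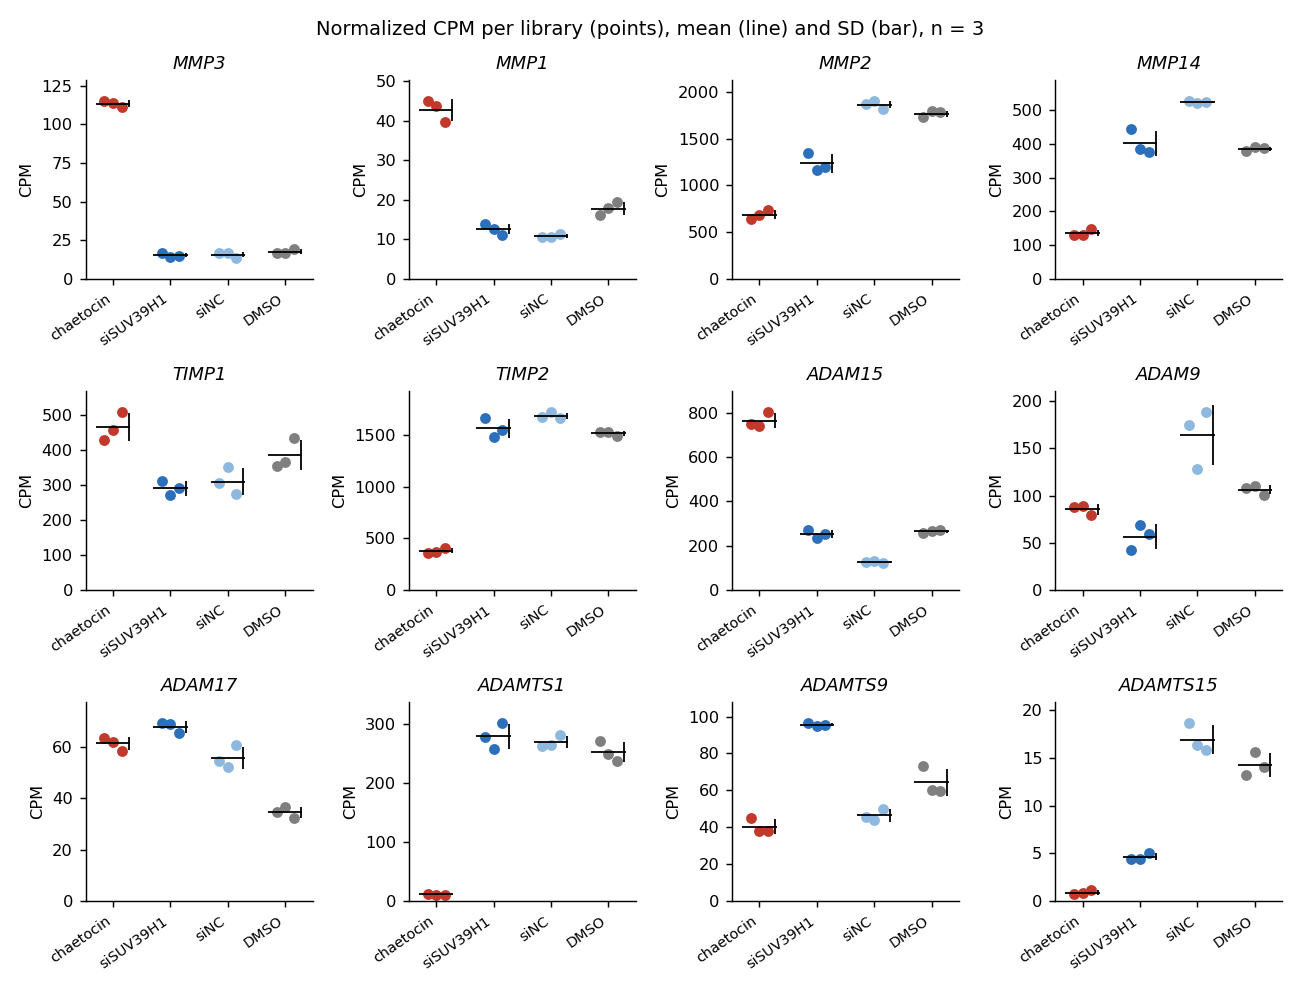
Normalised CPM in each library for 12 members, with groups ordered chaetocin, siSUV39H1, siNC and DMSO, the mean as a line and the SD as a bar (n = 3), each axis starting at 0. MMP3, MMP1 and ADAM15 are highest with chaetocin, MMP2, MMP14, TIMP2, ADAMTS1 and ADAMTS15 are lowest there, and ADAM9 and ADAMTS15 are lower with siSUV39H1 than with siNC.

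Counts of other genes of the proteolytic system with chaetocin stand beside 41.1% of all tested genes higher and 38.4% lower. In the plasminogen system, whose protease plasmin activates MMP precursors, 3 of 7 tested genes were higher and 2 lower. PLAU, the urokinase activator, had a log2 change of 1.11 ± 0.07, its receptor PLAUR 0.98 ± 0.08 and the inhibitor SERPINB2 1.37 ± 0.08, whereas the tissue activator PLAT had -2.83 ± 0.09. All 3 genes of the complex that carries ADAM17 to the cell surface were higher, at 1.91 ± 0.08 for RHBDF1, 1.38 ± 0.07 for RHBDF2 and 1.24 ± 0.09 for FRMD8. All 6 tetraspanins that partner with ADAM10 were lower, between -1.17 ± 0.11 for TSPAN10 and -0.36 ± 0.11 for TSPAN33, the last with an adjusted p of 0.0645 when scaled by library totals alone. Over that list of activators and cofactors 5 of 14 genes were higher and 7 lower, with a median log2 change of -0.22, beside 0.04 over all genes tested.

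Among other inhibitors and clearance factors, 2 of 9 tested genes were higher and 4 lower, beside 41.1% and 38.4% of all genes. RECK, a membrane-anchored MMP inhibitor, had -1.52 ± 0.09, THBS1 and THBS2, thrombospondins that bind MMP2 for uptake, had -2.51 ± 0.09 and -2.35 ± 0.07, and the inhibitor TFPI2 had 1.83 ± 0.08. Of the other metzincins 2 of 6 were higher, among them PAPPA2, which entered only through the chaetocin libraries, and 2 lower, with BMP1, which trims procollagen at the end opposite to ADAMTS2, at -1.72 ± 0.07. Substrates of ADAM sheddases gave 6 higher and 3 lower of 12, of which TNF, BTC, TGFA and EREG, all higher, entered the test only through the chaetocin libraries. TNF, the namesake substrate of ADAM17, had 742 counts with chaetocin and 0 with DMSO, HBEGF had 1.52 ± 0.11, and L1CAM, a neuronal adhesion molecule, had -4.73 ± 0.15. Of the ADAMTS substrates and relatives 2 of 6 were higher and 4 lower, including aggrecan, ACAN, at -2.21 ± 0.11.

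Markers of other cell types rose beside the chromosome 11 MMP genes, MMP9 and ADAM8. The 6 leukocyte markers summed to 49.4 to 57.2 TPM with chaetocin and 2.1 to 2.88 TPM with DMSO. PTPRC had 664 counts with chaetocin and 23 with DMSO, while CD3E had 1 count with chaetocin and 0 with DMSO. Endothelial markers summed to 10.5 to 11.4 TPM with chaetocin and 1.34 to 1.66 TPM with DMSO, and epithelial markers to 159 to 168 TPM and 125 to 136 TPM. Their part in these results was not tested.

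Knockdown of SUV39H1 changed fewer members and by less. Against siNC, 6 of the 56 tested members were higher (10.7%, beside 15.3% of all genes tested) and 16 were lower (28.6%, beside 18.6%). Changes of at least 2-fold were found for ADAM15 and ADAMTS9 upward (3.57%, beside 1.14%) and for ADAM9, ADAMTS6 and ADAMTS15 downward (5.36%, beside 2.26%). The median over the tested members was -0.08, beside 0.01 over all genes. On log2(TPM + 1) the split was 9 higher and 12 lower, beside 3318 higher and 1941 lower of all 15051 genes on that scale. Over all 67 members, the siSUV39H1 libraries lay above the siNC libraries for 7 (10.4%, beside 17.1% of all 18739 genes) and below them for 19 (28.4%, beside 17.9%).

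Of the chromosome 11 row edgeR called MMP12 alone, and it was lower, at 0.42, 0.637 and 0.603 CPM with siSUV39H1, against 0.674, 1.37 and 1.26 CPM with siNC (log2 -0.98 ± 0.30, adjusted p = 0.0193). That call was lost without siSUV39H1 replicate 1 (-0.82, adjusted p = 0.0665) or siNC replicate 2 (-0.80, 0.0896) or 3 (-0.87, 0.0632). MMP3 was at 17.1, 14.4 and 15.2 CPM with siSUV39H1, against 16.7, 16.7 and 13.7 CPM with siNC, overlapping groups with a log2 change of -0.02 ± 0.10. MMP20 and MMP27 had 0 counts in both siRNA groups, and MMP13 had 1 count with siSUV39H1 and 0 with siNC, so for these genes no difference was detectable at this depth.

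MMP2 was at 1350, 1160 and 1200 CPM with siSUV39H1, against 1870, 1900 and 1820 CPM with siNC, with no overlap (log2 -0.59 ± 0.07, adjusted p = 2.22e-05). MMP14 was at 443, 385 and 376 CPM with siSUV39H1, against 526, 521 and 522 CPM with siNC (log2 -0.38 ± 0.07, adjusted p = 0.000624). MMP15 (-0.52 ± 0.09, adjusted p = 0.000322) and MMP28 (-0.99 ± 0.23, adjusted p = 0.00354) were lower too. On log2(TPM + 1) MMP1 (0.28, adjusted p = 0.0325) and MMP19 (0.33, 0.0103) were called higher, which they were not by edgeR on counts. Among the inhibitors TIMP3 was lower at 7.2, 6.42 and 7.49 CPM with siSUV39H1, against 10.6, 10.4 and 9.27 CPM with siNC (log2 -0.52 ± 0.11, adjusted p = 0.00182). TIMP1 (-0.09 ± 0.10), TIMP2 (-0.11 ± 0.07) and TIMP4, with 0 counts in both groups, did not pass.

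ADAM9, a widely expressed sheddase, gave the largest ADAM change of the knockdown. It was at 42, 68.5 and 59.3 CPM with siSUV39H1, against 175, 128 and 188 CPM with siNC (log2 -1.53 ± 0.15, adjusted p = 1.89e-06). The groups did not overlap, but siSUV39H1 replicate 1 and siNC replicate 2 were the lowest of their groups, as they also were for ADAM10, ADAM22 and MMP16. ADAM12 was lower, at 78.9 ± 5.89 CPM with siSUV39H1 and 114 ± 11.7 CPM with siNC (-0.53 ± 0.09, adjusted p = 0.000284). ADAM8 was lower at -0.42 ± 0.12 (adjusted p = 0.0117), a call lost without siSUV39H1 replicate 3 (-0.36, adjusted p = 0.0609) and on log2(TPM + 1) (adjusted p = 0.0871).

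ADAM15 was at 273, 234 and 251 CPM with siSUV39H1, against 127, 130 and 121 CPM with siNC (log2 1.01 ± 0.07, adjusted p = 2.98e-08). ADAM17 (0.28 ± 0.07, adjusted p = 0.00751) and ADAM19 (0.32 ± 0.07, adjusted p = 0.00143) rose by less, with separate groups. ADAMTS9, a versican-cutting enzyme, was at 96.3, 94.6 and 95.6 CPM with siSUV39H1, against 45.4, 43.8 and 50.2 CPM with siNC (log2 1.04 ± 0.09, adjusted p = 4.5e-07). ADAMTS5 had 0.61 ± 0.13 (adjusted p = 0.0026). ADAMTS13 had 0.51 ± 0.15 (adjusted p = 0.0148), which did not hold without siSUV39H1 replicate 3 (0.47, adjusted p = 0.0571) or siNC replicate 1 (0.40, 0.0707).

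ADAMTS15 had the largest fall of the knockdown among the members, at 4.47, 4.46 and 5.07 CPM with siSUV39H1, against 18.6, 16.3 and 15.8 CPM with siNC (log2 -1.86 ± 0.13, adjusted p = 4.66e-08). ADAMTS6 was at 0.578, 0.833 and 0.502 CPM with siSUV39H1, against 1.81, 1.79 and 2.77 CPM with siNC (-1.72 ± 0.27, adjusted p = 0.000152). ADAMTS14 (-0.63 ± 0.13), ADAMTSL1 (-0.61 ± 0.09) and ADAMTSL4 (-0.31 ± 0.08) were lower, with adjusted p of 0.00141, 9.39e-05 and 0.00505. ADAMTS12 was lower at -0.42 ± 0.12 (adjusted p = 0.0148), a call lost without siNC replicate 1 (-0.37, adjusted p = 0.0581) or 3 (-0.36, 0.0527). ADAMTS10 (-0.50 ± 0.19, adjusted p = 0.0484) lost its call when any 1 of the 6 siRNA libraries was left out, with adjusted p between 0.0621 and 0.147. ADAMTS1, the member that fell most with chaetocin, was at 278, 258 and 301 CPM with siSUV39H1, against 263, 264 and 282 CPM with siNC, and did not pass (0.05 ± 0.07).

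Counts of the other genes of the pathway in the knockdown stand beside 18.6% of all tested genes lower and 15.3% higher. Of 7 tested plasminogen genes 5 were lower with siSUV39H1 and 1 was higher. The largest fall was that of SERPINB2 (-1.27 ± 0.09), followed by SERPINE2 (-0.82 ± 0.06) and PLAUR (-0.71 ± 0.08). Of the activators and cofactors 10 of 14 were lower, including RHBDF2 (-0.87 ± 0.08), FRMD8 (-0.88 ± 0.09) and TSPAN10 (-1.15 ± 0.11), and 2 were higher. The calls of PCSK5, RHBDF1, TSPAN15, PCSK7 and TSPAN33 in that list were each lost without at least 1 of the siRNA libraries, for example at adjusted p of 0.163 for PCSK5 without siNC replicate 3 and 0.179 for TSPAN15 without siSUV39H1 replicate 2. Among other inhibitors 4 of 9 were higher, with SPOCK1 at 0.70 ± 0.06 and TFPI2 at 0.89 ± 0.08, and 1 was lower, THBS2 at -0.19 ± 0.07, a call lost without siSUV39H1 replicate 2 (adjusted p = 0.156). The other metzincins gave 2 lower of 6, the shed ligands and receptors 2 higher and 2 lower of 12, and the ADAMTS substrates 1 higher, ACAN at 1.48 ± 0.10, and 1 lower of 6. Leukocyte markers summed to 1.89 to 3.65 TPM with siSUV39H1 and 1.97 to 2.64 TPM with siNC. Noradrenergic markers summed to 459 to 513 TPM with siSUV39H1 and 354 to 374 TPM with siNC, and 3 of 5 tested were higher (HAND2 0.45 ± 0.08, GATA3 0.34 ± 0.09, DBH 0.35 ± 0.08), and 1 of 6 mesenchymal markers was higher. Their part in the knockdown results was not tested.

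The control siRNA libraries themselves differed from DMSO. All 5 tested noradrenergic markers were lower in siNC, between -1.30 ± 0.09 for PHOX2A and -0.86 ± 0.09 for GATA3, and of 6 mesenchymal markers 3 were lower and 1 higher. Their part in the member values was not tested. The comparison of siNC with DMSO shares the siNC libraries with the knockdown comparison and the DMSO libraries with the chaetocin comparison. In it 14 members were higher in siNC (25%, beside 17.0% of all genes) and 12 lower (21.4%, beside 18.2%). On log2(TPM + 0.1) 16 members were higher and 8 lower, beside 2712 higher and 2241 lower of all 15051 genes. ADAM15 had the largest gap among abundant members, at 127, 130 and 121 CPM with siNC, against 258, 268 and 269 CPM with DMSO (log2 -1.07 ± 0.07, adjusted p = 3.4e-08). The siSUV39H1 libraries, at 234 to 273 CPM, overlapped the DMSO libraries. ADAM8 was higher in siNC by 1.61 ± 0.13, ADAMTS6 by 1.27 ± 0.25, ADAMTS12 by 1.09 ± 0.13, ADAM17 by 0.69 ± 0.07 and ADAM9 by 0.62 ± 0.15.

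Set against all 6 control libraries, the 3 siSUV39H1 libraries lay above every siNC and DMSO library for ADAM17, ADAM19 and ADAMTS9. They lay below every one of them for ADAM9, ADAMTS10, ADAMTS14, ADAMTS15, ADAMTSL1, MMP2, MMP15 and TIMP3. The share of all genes that stood apart in this way was not computed, so these members are listed as a description. For ADAMTSL1 the distance was small, with 156, 139 and 151 CPM in siSUV39H1 libraries and 158 CPM in the lowest DMSO library. MMP14 was not among them, since its siSUV39H1 values of 376 to 443 CPM overlapped the 379 to 391 CPM of DMSO.

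Both treatments were called in the same direction for 13 members (23.2%, beside 14.7% of all genes tested). ADAM15 and ADAM17 were higher with both, and 11 were lower with both: ADAM12, ADAMTS10, ADAMTS14, ADAMTS15, ADAMTSL1, ADAMTSL4, MMP2, MMP14, MMP15, MMP28 and TIMP3. Among these 13, the siSUV39H1 libraries of ADAM15, ADAM12, ADAMTSL4, MMP14 and MMP28 did not stand apart from both the siNC and the DMSO libraries. ADAM12 was at 78.9 ± 5.89 CPM with siSUV39H1 and 77.4 ± 7.55 CPM with DMSO (SD, n = 3 each). For 8 members the calls were opposite (14.3%, beside 12.9%). ADAM8, ADAMTS6, ADAMTS12 and MMP12 were higher with chaetocin and lower with siSUV39H1, and ADAM19, ADAMTS5, ADAMTS9 and ADAMTS13 were lower with chaetocin and higher with siSUV39H1. Tested as a difference of the 2 effects, 16 of 56 members had the higher log2 change with chaetocin (28.6%, beside 33.9% of all genes) and 27 the lower (48.2%, beside 33.7%). MMP7 and MMP9 among the 16 entered the test only through the chaetocin libraries.

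Within the chromosome 11 row the difference passed for MMP1 (1.06 ± 0.15), MMP3 (2.70 ± 0.14), MMP7 (6.33 ± 0.89), MMP10 (2.78 ± 0.45) and MMP12 (5.19 ± 0.38). MMP7, MMP8, MMP13, MMP20 and TIMP4 entered these tests only through the chaetocin libraries, so that they could enter only by being higher there. MMP8 had an adjusted p of 0.0638 by edgeR and 0.0177 by DESeq2. MMP13, MMP20 and TIMP4, with 0 counts in most groups, had adjusted p of 1 in the edgeR contrast and of 0.011, 0.0109 and 0.000194 by DESeq2. For the members lower with both treatments the chaetocin change was the larger one in MMP2 (-0.77 ± 0.11), MMP14 (-1.13 ± 0.10), MMP15 (-2.14 ± 0.13), ADAM12 (-2.59 ± 0.14) and ADAMTS15 (-2.12 ± 0.22), each past the test. For MMP28 the difference of -0.42 ± 0.37 did not pass. A two-sided exact permutation test of 3 against 3 libraries cannot go below p = 0.1, the value reached by every member whose groups did not overlap.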

How the data were processed

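RNA-seq was analysed in 12 SK-N-SH libraries, 3 in each of 4 groups taken from the sample labels. The deposited tables hold expected counts, TPM and FPKM per gene, per the file headers; FPKM was not used. For the authors' steps, hg38, RSEM 1.3.1, Bowtie2 and DESeq2 1.4.5 are listed without roles per the submitters' processing notes, and whether counting used strand is not given in the sources used here. All 12 columns of single libraries were matched to samples, leaving 0 unmapped.

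Expected counts were rounded to whole numbers and tested with edgeR 4.0.16 (R 4.3.3) by the quasi-likelihood test with TMM scaling, 4 group means over all 12 libraries and 8 residual degrees of freedom. Genes were kept by filterByExpr (count minimum of 10, here 0.508 CPM), and p-values were adjusted by Benjamini-Hochberg over 15051 genes at a threshold of 0.05. CPM are TMM-scaled, and SDs are over 3 libraries. Ratios of summed counts were computed for members with 30 or fewer counts in the smaller group and more than 3 in the larger. They have exact 95% intervals or, against 0, a floor of 3 counts over the group. Two-sided exact permutation tests used log2(CPM + 0.5). Promoters and coordinates are from RefSeq (GRCh38.p14), and exon overlaps from GENCODE 29. Python 3.11.15, pandas 2.3.3, numpy 2.4.6 and scipy 1.17.1 made the tables.

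Named with values were the 4 TIMPs, MMP2, MMP9, MMP14, ADAM10 and ADAM17, members at 1 CPM or more that passed with at least 2-fold change, members at 5 CPM or more that passed in the knockdown, and members near 0 in one group with at least 30 counts in the other. Members named outside this rule were chosen after their values were seen. The members, lists and tests were chosen with earlier results of these data known. Alternatives were RLE scaling, library totals, other filters, DESeq2 1.42.0, limma-trend (limma 3.58.1) on log2(TPM + 1) and log2(TPM + 0.1) of the deposited TPM values, the libraries of one comparison alone, a replicate block, and leaving out each replicate. Results of some genes are not reported here.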

Additional observations from a re-analysis of the deposited data

Results flagged for a closer look

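For 8 members the 2 treatments were called in opposite directions and the difference between the effects, chaetocin minus DMSO less siSUV39H1 minus siNC, passed edgeR's test. The difference was 6.0 ± 0.34 on the log2 scale for ADAMTS6 (SE, adjusted p = 4.07e-10), 5.19 ± 0.38 for MMP12 (8.42e-09), 1.9 ± 0.17 for ADAM8 (1.06e-07) and 1.1 ± 0.17 for ADAMTS12 (4.4e-05), all higher with chaetocin. It was -2.61 ± 0.20 for ADAMTS5 (adjusted p = 1.27e-08), -1.72 ± 0.13 for ADAMTS9 (9.23e-09), -1.17 ± 0.09 for ADAM19 (2.5e-08) and -1.06 ± 0.21 for ADAMTS13 (0.000355), all lower with chaetocin. The knockdown calls of MMP12, ADAM8, ADAMTS12 and ADAMTS13 were each lost without 1 of the libraries. For all 8 members siNC itself differed from DMSO, by 1.61 for ADAM8, 1.27 for ADAMTS6, 1.09 for ADAMTS12, 0.88 for MMP12, 0.39 for ADAM19, -0.42 for ADAMTS13, -0.46 for ADAMTS5 and -0.47 for ADAMTS9 on the log2 scale. The siNC calls of MMP12 and ADAMTS13 were lost with DESeq2 and without some single libraries, and that of ADAMTS5 without siNC replicate 2. Of the 8, only ADAM19 and ADAMTS9 had siSUV39H1 libraries above all siNC and all DMSO libraries. For ADAM8 and ADAMTS12 the siSUV39H1 libraries lay between the siNC and the DMSO libraries. ADAM8 was at 8.65 ± 1.15 CPM with siSUV39H1 and 3.77 ± 0.344 CPM with DMSO, and ADAMTS12 at 17.8 ± 1.55 CPM with siSUV39H1 and 11.1 ± 1.79 CPM with DMSO (SD, n = 3 each), so that against DMSO both lay on the same side as with chaetocin. That comparison was not tested.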

How the results depend on the processing

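Over the alternatives run, leave-one-out included, the number of members called was 46 to 56 with chaetocin (49 as reported), 19 to 23 with the knockdown (22), 42 to 46 for the difference of effects (43) and 20 to 29 for siNC minus DMSO (26), each within 1.5 times the reported count. The row on chromosome 11 had 6 genes called higher with at least 1 CPM in 3 libraries and 9 with no filter, where more or fewer genes are tested. MMP19 reversed with chaetocin, -0.07 as reported against 0.25 on log2(TPM + 1) and 0.26 on log2(TPM + 0.1), and the cause was not tested. Of the values for single members under the alternatives, 3468 kept their direction and side of the threshold, 96 lost a call, 47 gained one and 2 reversed. With library totals the median of all genes with chaetocin was 0.19, beside 0.04 as reported. Replicate numbers did not pair samples: same-numbered chaetocin and DMSO libraries correlated at 0.068, -0.046 and 0.056, and siSUV39H1 and siNC libraries at -0.045, -0.269 and 0.16. These correlations are of deviations from the group mean over all genes tested. Larger values were found for siSUV39H1 replicate 1, at 0.346 with siNC replicate 2 and -0.33 with siNC replicate 3. Their source was not tested. With the replicate block 48 members were called with chaetocin, 21 with the knockdown, 42 for the difference and 24 for siNC minus DMSO. Depth limits the members with few counts, for which intervals are wide.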
